A study of Homo sapiens with 2 samples.

Results

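The long arm of chromosome 8 (8q) carried 2183 of the 54373 hnRNPM crosslink sites in the list, and the short arm (8p) carried 824. The 8q sites were taken by position alone, as the chromosome 8 sites that began at or beyond 45.6 Mb (GRCh37), and sites below that position were assigned to 8p. The other autosomes, with 49975 sites, served as reference. The choice of the boundary did not bear on the split, since no site lay between 43.0 and 48.2 Mb. The last 8p site had a height of 8 and the first 8q site one of 10.

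The sites came from iCLIP of HMLE cells, an established, immortalised line from human breast epithelium. Both libraries were wild-type HMLE cells given DMSO, ultraviolet-crosslinked and precipitated with an anti-hnRNPM antibody, and they were labelled as biological replicates 1 and 2 of 1 group. There was no second condition, and all cells were of 1 line. The deposited list gave each 21-nt site 1 height with no value per library, so library depth is unknown here, no spread between cultures could be given, and no test of a difference was made. Every comparison below is a description of 1 list, and heights were not set against RNA levels.

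hnRNPM is an RNA-binding protein of the nucleus that binds mostly within introns and takes part in the choice of splice sites. In breast epithelial cells it is known for its part in the splicing changes of the epithelial-mesenchymal transition. In iCLIP, reverse transcription tends to stop at the base to which the protein was crosslinked, and piled-up stops mark a site. The height is the authors' score of a site. The deposited name of each site also held the tag cluster to which it belongs and a value marked PH0, which the file does not define and which was read here as the height expected from the level of that cluster. The arm 8q is often present in extra copies in breast tumours, and copy number was not measured here.

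Sites were somewhat denser on 8q than on 8p, but the larger difference lay in how they were grouped. The density was 21.7 sites per Mb on 8q and 18.1 on 8p, a ratio of 1.20 (95% Wilson interval 1.11 to 1.30, from the split of the sites, for counting error only). Sites lie close together and are not independent, so this interval is too narrow. Among the 39 autosome arms with at least 100 sites, 8q ranked 8th from the top in density and 8p 23rd. Arm lengths were not reduced by centromere gaps or other unsequenced spans, so the ranks hold for full lengths only. The 37 arms of the other autosomes ran from 11.5 sites per Mb on 5p to 26.4 on 22q, with a median of 18.7. A higher density on the long arm was not rare, since 9 of the 17 autosomes with both arms measured had it, and 4 of them had a higher ratio than chromosome 8.

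Set against gene content, the gap between the arms was wider. The arm 8q held 72.6% of the chromosome 8 sites (95% Wilson interval 71.0 to 74.2) in 68.8% of its length. It held 65.6% of the intron length of protein-coding genes on chromosome 8 and 60.2% of the genes, as totals of GENCODE 29 on GRCh38. All sites of an arm were divided by these totals, wherever the sites lay. No site was placed within a gene or an intron, so these are not densities of sites inside introns. There were 58.2 sites per Mb of intron length on 8q and 41.9 on 8p, a ratio of 1.39, the 3rd highest of the 17 autosomes. Only 6p, with 63.8, lay above 8q on this measure, and the median of the other arms was 45.1. Per protein-coding gene, 8q had 5.31 sites and 8p 3.03. The value of 8q was the highest of the 39 arms, followed by 18q with 5.08.

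**Figure D1:**
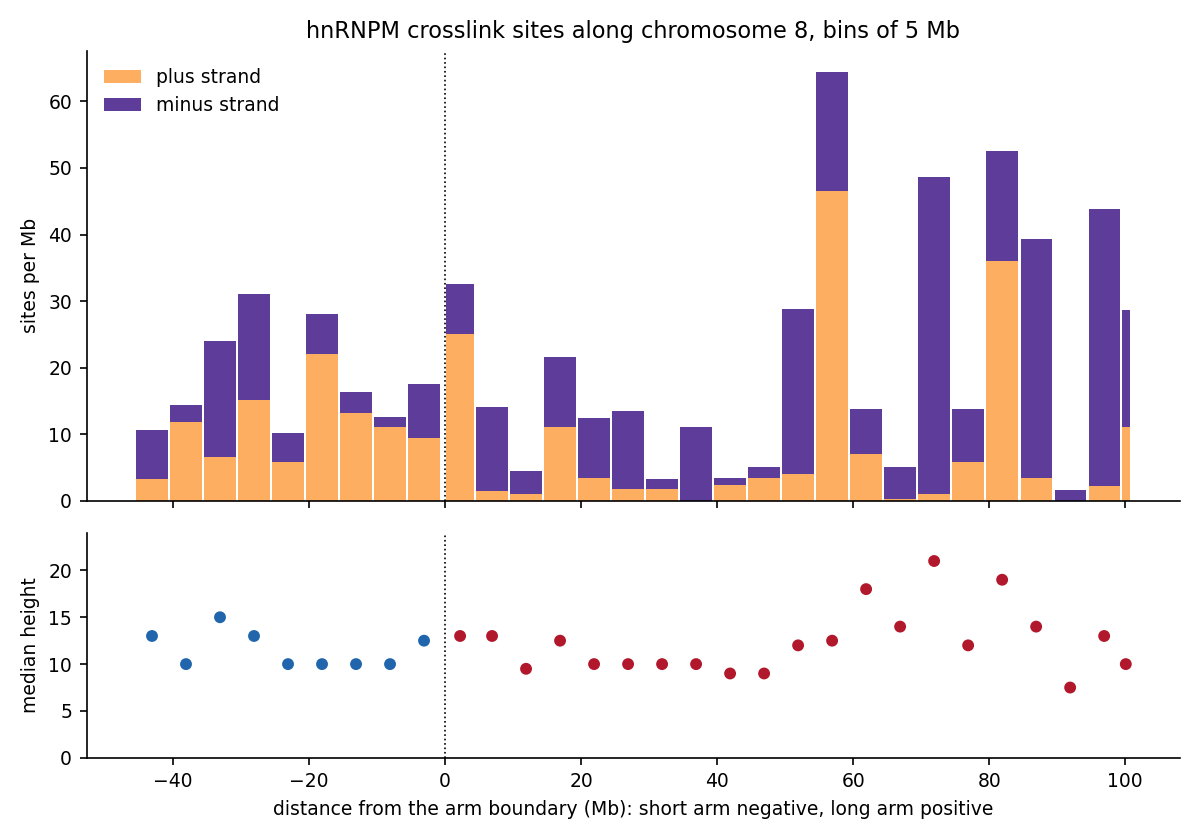
Upper panel: sites per Mb in bins of 5 Mb along chromosome 8 by strand, placed by distance from the arm boundary (short arm negative). Lower panel: median height of each bin, 8p in blue and 8q in red. Dense bins gather in the distal part of 8q, where the fullest reaches 64.4 sites per Mb and the emptiest, between 2 dense bins, 1.60.

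The sites of 8q lay mainly in its distal part. From the arm boundary to 95 Mb there were 585 sites, or 11.8 per Mb, and from 95 Mb to the end of the chromosome there were 1598, or 31.1 per Mb. This division was chosen after the bins were seen. The distal part held 73.2% of the 8q sites. Its sites were also taller, with a median height of 15 (quartiles 10 and 24) against 11 (8 and 17) in the proximal part. A height of at least 50 was reached by 116 distal sites (7.26%) and by 7 proximal sites (1.20%). The proximal part was therefore sparser than 8p, which had 18.1 sites per Mb, and lower in median height than the 12 of 8p.

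Counts per bin alternated between extremes on 8q and were more even on 8p. The 19 full bins of 5 Mb on 8q held from 8 to 322 sites, with a median of 69 and an SD of 96.7 between bins. The 9 full bins of 8p held from 51 to 155 sites, with a median of 82 and an SD of 38.1. In the other autosomes, 505 full bins had a median of 87 and an SD of 60.6. At least 200 sites were found in 4 of the 19 bins of 8q (21.1%), in none of the 9 of 8p and in 32 of the 505 others (6.34%). At most 25 sites were found in 6 bins of 8q (31.6%), in none of 8p and in 52 others (10.3%). Both ends of the distribution were thus more frequent on 8q.

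The fullest bin of 8q, from 100 to 105 Mb, held 322 sites, and only 2 of the 505 bins of the other autosomes held more. It was followed by 125 to 130 Mb with 263 sites, 115 to 120 Mb with 243 and 140 to 145 Mb with 219. The emptiest, from 135 to 140 Mb, held 8 sites and lay directly before the bin of 219. On 8p the fullest bin, from 15 to 20 Mb, held 155 sites, and 77 of the 505 other bins held more. The order of the bins by density was not their order by height. The bin at 100 to 105 Mb had a median height of 12.5, which 75 of the 458 bins of the other autosomes with at least 20 sites exceeded. At 115 to 120 Mb the median was 21, exceeded in none of them. At 125 to 130 Mb the median was 19, exceeded in 2 of them.

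Long empty spans separated the dense parts of 8q. The longest ran from 110655706 to 116460991 and covered 5.81 Mb, and the next covered 5.10 Mb, from 135690466 to 140791167. Gaps of more than 1 Mb numbered 29 and took up 58.8% of 8q, against 11 gaps and 46.4% of 8p. The same share had a median of 42.9% in the other arms and ran from 11.2% to 61.3%.

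The sites of 8q stood together on 1 strand in full stretches. A stretch was a run of neighbouring sites that shared a strand, were not interrupted by the opposite strand and followed each other within 50 kb. Stretches of at least 10 sites held 80.3% of the 8q sites (95% Wilson interval 78.5 to 81.9) and 69.2% of the 8p sites (65.9 to 72.2). In the other autosomes together the share was 71.7%. These stretches were few on 8q but full. There were 4.17 per 10 Mb, which placed 8q 36th of the 39 arms, while 8p had 4.82 and the median of the other arms was 5.90. A stretch of 8q held a median of 26 sites over 113 kb, the highest of the 39 arms in both. The values of 15q were close, with 24 sites over 111 kb. The medians were 20 sites over 90.8 kb on 8p, and 17.5 sites and 85.1 kb at the median of the other arms. Within such stretches 8q had 277 sites per Mb, also the highest, though close to the 275 of 19p. The value was 236 on 8p, and the median of the other arms was 228.

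The arms differed most in stretches of 50 or more sites. On 8q there were 13, holding 1161 sites (53.2%, 95% Wilson interval 51.1 to 55.3) on 3.83% of the length of the arm. On 8p there were 2, holding 121 sites (14.7%). In the 37 other arms the share of sites in such stretches ranged from 0 to 33.2% (on 6p), with a median of 12.9%. The 13 stretches of 8q were 10.3% of all such stretches on autosomes, while 8q held 4.01% of the sites of the list. With all stretches of 50 or more sites left out of every arm, 8q fell from 8th to 38th of 39 in density. It then had 10.5 sites per Mb, against 15.6 on 8p and a median of 15.6 in the other arms. The ratio of 8q to 8p turned from 1.20 to 0.678, by a removal that took 1161 sites from 8q and 121 from 8p. When the 10 fullest stretches of each arm were left out instead, 1009 sites of 8q (46.2%) and 377 of 8p (45.8%), the ratio was 1.19. The first removal took unlike shares of the 2 arms (53.2% and 14.7%), and the second took nearly equal shares. Both ratios follow largely from the shares removed, so no conclusion is drawn from their contrast. The limit of 50 sites was chosen after the stretches were seen. With gaps of at most 20 kb, 7 stretches of 8q reached it and held 28.4% of its sites, still the highest share, though close to the 26.1% of 6p. The remaining density was then 15.7 per Mb on 8q, 30th of 39, and 16.8 on 8p, 22nd, a ratio of 0.933.

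**Figure D2:**
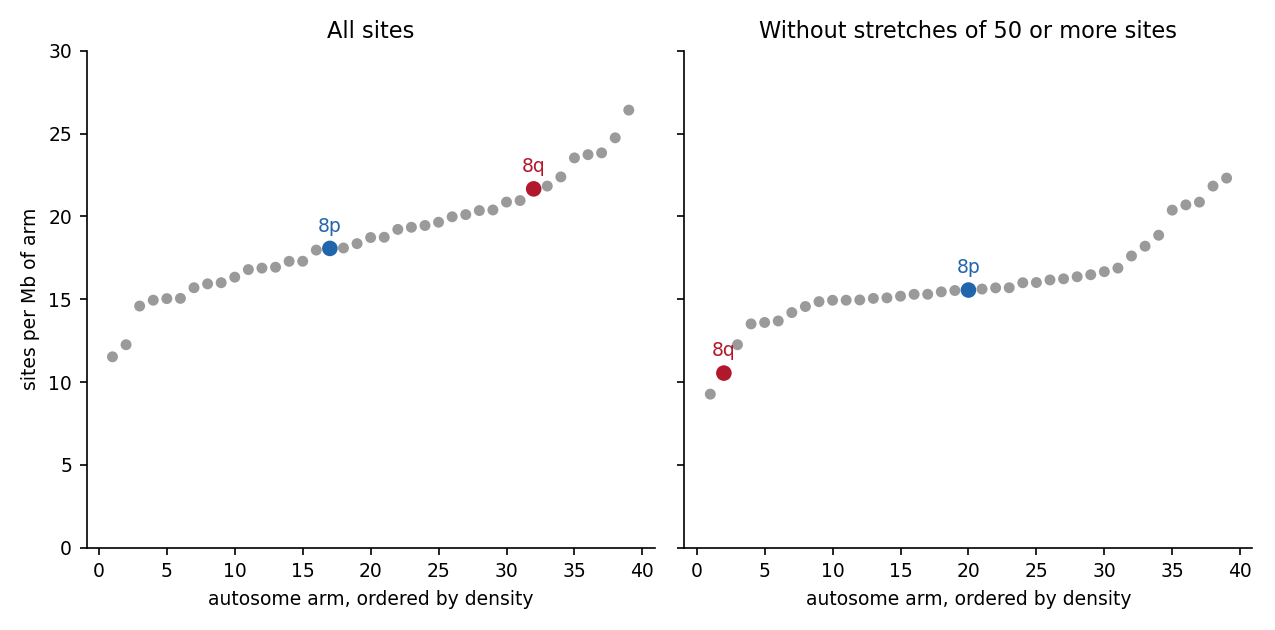
Sites per Mb of the 39 autosome arms with at least 100 sites, ordered from lowest to highest, for all sites (left) and without stretches of 50 or more sites in any arm (right). The long arm of chromosome 8 (red) moves from 21.7 to 10.5 sites per Mb, while the short arm (blue) moves from 18.1 to 15.6.

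**Figure D3:**
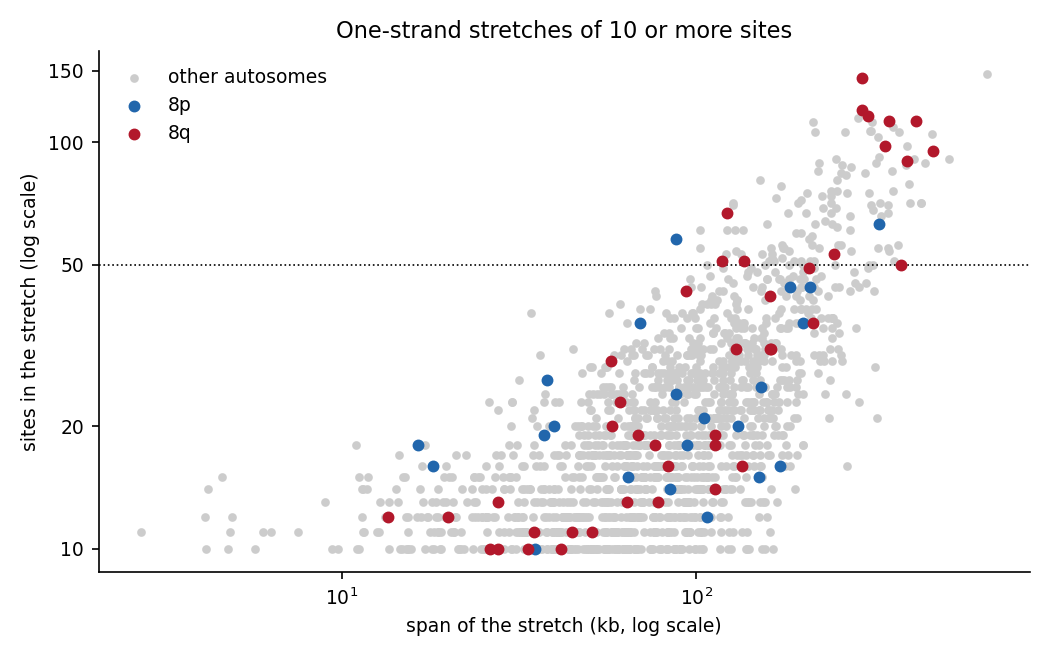
Number of sites against span for each stretch of at least 10 sites, on log scales, for 8q (red), 8p (blue) and the other autosomes (grey). The dotted line marks 50 sites, a number that 13 stretches of 8q and 2 of 8p reached.

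The 10 fullest stretches of 8q held 1009 sites, 46.2% of the arm, on 3.23 Mb. Of these, 5 were on the minus strand and 5 on the plus strand. Among the 50 fullest stretches of all autosomes, 8 were on 8q, none on 8p and 42 on the other autosomes. Of all stretches of at least 10 sites, 42 were on 8q, 22 on 8p and 1524 on the other autosomes. With so few stretches on 8p, its absence from the 50 fullest is not read as low. Which genes lie at these positions was not analysed here, since the annotation at hand was of a later build.

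The fullest, on the minus strand from 118827397 to 119121458, held 144 sites in 63 tag clusters, with a median height of 24.5 and 26 sites of at least 50. It held 6.60% of the sites of the arm. Its sites thinned out along the transcript direction. Counted from the site farthest upstream on the strand in steps of 50 kb, it held 41, 39, 30, 20, 11 and 3 sites, the last step being shorter than the others. The median height in these steps was 25, 32, 23.5, 26.5, 20 and 14, the last from 3 sites. Height thus did not fall steadily with the number of sites.

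The stretch next in size, on the plus strand from 128807595 to 129101584, had nearly the same span of 294 kb, with 120 sites and a median height of 21.5. Its sites fell into separate groups along the whole span, with 70 upstream of its midpoint and 50 downstream. The third, on the minus strand from 131150371 to 131454826, held 116 sites with a median height of 15. It had 3 sites of at least 50, against 17 in the plus-strand stretch of 120 sites. These 3 stretches ranked 2, 3 and 4 in number of sites among the stretches of all autosomes.

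Both stretches of 113 sites were on the minus strand. The stretch from 99487651 to 99837002 had a median height of 13, and the stretch from 141585739 to 142003639 had one of 18. They were equal in number but not in height: their summed heights were 2292 and 2765. Next came 98 sites on the plus strand from 48180875 to 48521992, the first sites of the arm, with the shortest median gap between sites of the 10, at 762 nt. The median gap was 942 nt in the fullest stretch and 1267 nt over all stretches of 8q, against 1672 nt on 8p.

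The other named stretches were lower or shorter. The 95 sites from 100038616 to 100503624 on the plus strand were spread over 465 kb, with a median height of 11 and none of at least 50. The 90 sites from 104519328 to 104913112, also on the plus strand, had a median height of 13 and likewise none of at least 50. By contrast, 67 sites on the minus strand from 125617086 to 125738903 were packed into 122 kb, at 5.50 sites per 10 kb, the highest density of the 10. Their median height was 18, with 13 sites of at least 50. The 53 sites from 126104775 to 126349292 on the plus strand had a median height of 16.

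In most of these stretches more sites lay upstream of the midpoint than downstream. This was so in 9 of the 10 fullest stretches of 8q. The share upstream was 76.4% in the fullest and 81.1% in the stretch of 53 sites, and the exception, with 47.8%, was the stretch of 90. Over all 42 stretches of at least 10 sites on 8q, 24 (57.1%) had more sites upstream and 15 more downstream. More sites upstream were found in 40.9% of the stretches of 8p and 60.6% of those of the other autosomes. Pooled, the stretches of 8q had 59.2% of their sites upstream, against 53.5% in the 22 stretches of 8p and 57.5% in the 1524 stretches of the other autosomes. Taken per stretch, the median share was 54.7% on 8q, 50% on 8p and 57.1% in the other autosomes. By stretch, 8q was thus not above the other autosomes. On each of these measures 8q was closer to the other autosomes than to 8p.

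**Figure D4:**
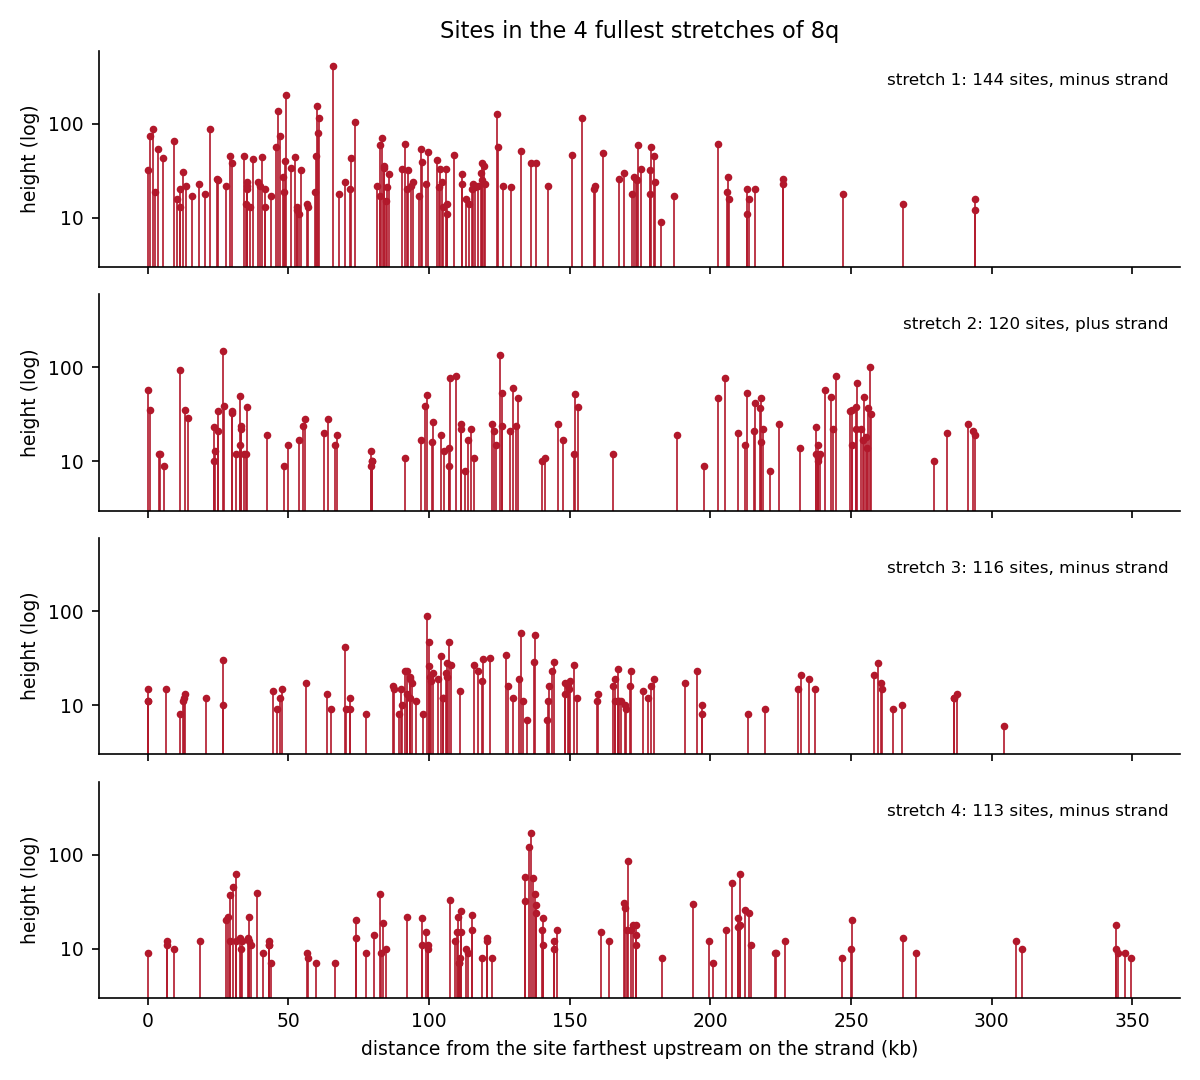
Height (log scale) of each site in the 4 fullest stretches of 8q against the distance in kb from the site farthest upstream on the strand; each line is 1 site. Sites of the fullest stretch crowd into its upstream part, while those of the stretch of 120 sites fall into groups along its span.

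The 3 fullest stretches of 8p were smaller. They held 63 sites (minus strand, 18540608 to 18868155), 58 sites (minus strand, 10966916 to 11054531) and 44 sites (plus strand, 32408341 to 32592819). Their median heights were 12, 21 and 11. The stretch of 58 sites stood out among them, with 6.62 sites per 10 kb, more than any of the 10 fullest of 8q.

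Sites on 8q were taller than on 8p and than in the other autosomes. The median height was 13 on 8q (quartiles 9 and 22; 95% interval of the median from order statistics 13 to 14), 12 on 8p (9 and 17; 11 to 12) and 11 in the other autosomes (8 and 17). A median of 13 was the highest of the 39 arms and was shared with 21q, and 27 arms had a median of 11. The difference was largest among tall sites. A height of at least 50 was reached by 123 sites of 8q (5.63%, Wilson interval 4.74 to 6.68), by 29 of 8p (3.52%, 2.46 to 5.01) and by 2.47% of sites in the other autosomes. No arm had more of these sites, and only 18p, with 5.93% of its sites, had a larger share. A height of at least 100 was reached by 19 sites of 8q and 4 of 8p.

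On 8q the full stretches carried most of the tall sites. The 13 stretches of 50 or more sites held 95 of the 123 sites of at least 50 on 8q (77.2%). They also held 53.2% of all its sites, and the median height inside them was 16. On 8p such stretches held 20.7% of the tall sites and 14.7% of all sites, with a median height of 15. In the 111 such stretches of the other autosomes the shares were 24.9% and 15.8%, and the median was 14. With stretches of that size left out of every arm, the median height of 8q was 11, equal to that of 8p and to the median of the other arms, and 2.74% of its sites reached 50, 14th of the 39 arms. The share on 8p was then 3.27%, the 6th highest. These shares rest on 28 of the 1022 remaining sites of 8q and 23 of the 703 of 8p. The removal had taken 95 sites of at least 50 from 8q and 6 from 8p. With so few tall sites left, no order of the 2 arms is read from these shares. Outside stretches of at least 10 sites, the median height was 9 on 8q, 10 on 8p and 9 in the other autosomes.

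**Figure D5:**
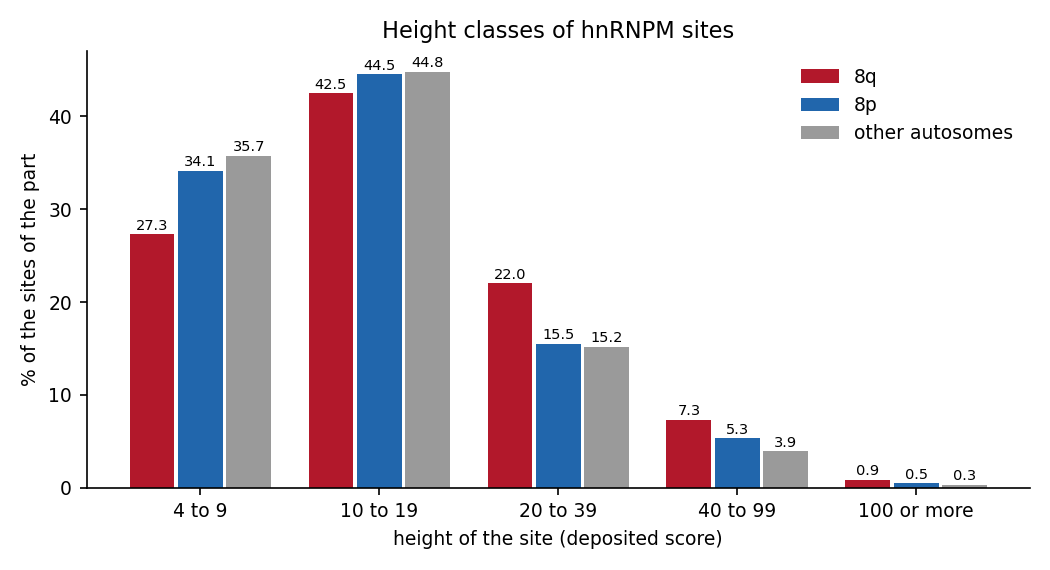
Share of the sites of 8q (red), 8p (blue) and the other autosomes (grey) in each class of height, in %. Heights of 20 to 39 made up 22.03% of the 8q sites, against 15.5% on 8p and 15.2% elsewhere.

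The value PH0 followed the same order as the height. Its median was 0.62 on 8q (quartiles 0.40 and 1.05), 0.53 on 8p (0.34 and 0.87) and 0.51 in the other autosomes (0.34 and 0.80). The median of 8q was the highest of the 39 arms, above the 0.61 of 18p. The ratio of height to PH0 did not set 8q apart. Its median was 23.3 on 8q and 23.3 on 8p, and 23.8 in the other autosomes, and 8q ranked 35th of the 39 arms. Height and PH0 were thus both high on 8q, while their ratio was not. Both values come from the same tags, so the ratio is not a separate measurement.

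The tallest site of 8q, on the minus strand from 119055635 to 119055655, had a height of 414 and was the 17th tallest of the list. It lay in the fullest stretch and was the only site of its tag cluster. The site next in height, from 70602466 to 70602486 on the minus strand, had a height of 328 and a PH0 of 11.69. It formed a stretch by itself and was the only site of its cluster. The third, with a height of 203, lay in the fullest stretch again, in a cluster of 8 sites. Both sites with a height of 183 were on the minus strand, from 117729860 to 117729880 and from 125695830 to 125695850, with ratios to PH0 of 77.9 and 52.7.

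Of the 10 tallest sites of 8q, 9 were on the minus strand and 4 lay in the fullest stretch. The exception in strand had a height of 150, from 128834448 to 128834468, in the plus-strand stretch of 120 sites. The remaining 4 of the 10 had heights of 171, 169, 153 and 138. On 8p the tallest site, from 23171140 to 23171160, had a height of 154, and it was the 70th tallest of the list. It was followed on 8p by sites of 153 and 142, and all 3 were on the minus strand and alone in their clusters.

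The tallest stretch of 8q by median was small. On the minus strand from 109225486 to 109260342, 11 sites reached heights of up to 169, with a median of 43. A median of at least 20 was found in 5 of the 42 stretches of 8q (11.9%), in 3 of the 22 of 8p (13.6%) and in 75 of the 1524 of the other autosomes (4.92%). On this measure both arms of chromosome 8 had larger shares than the other autosomes together.

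Sites of 8q shared tag clusters more often than those of the other ranked arms. The 2183 sites fell into 1483 clusters, and 50.2% of them (95% Wilson interval 48.1 to 52.3) lay in clusters of at least 2 sites. The share was 46.2% on 8p (42.9 to 49.7) and ran from 35.4% on 16p to 47.7% on 21q in the other arms. Clusters of at least 4 sites made up 4.52% of the clusters on 8q, 2.87% on 8p and 2.67% in the other autosomes. The fullest clusters of 8q held 9 sites, a number that 4 clusters reached. They included 2 in the fullest stretch, from 119002562 to 119008391 and from 119035823 to 119039985, and 1 from 131347021 to 131351528. The heights ran from 14 to 38, from 15 to 70 and from 12 to 47 within them. The fullest cluster of 8p held 7 sites, from 15537408 to 15541368, with heights from 15 to 46. Without stretches of 50 or more sites the share of 8q sites in clusters of at least 2 was 41.4%, 17th of the 39 arms.

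The running numbers of clusters and sites gave a further view of how much of each arm was listed. Cluster numbers rose with position along each strand. Counted from the first to the last listed site of each strand, they spanned 1484 numbers per Mb on 8q and 1366 on 8p, both below the median of 1658 in the other arms. Of these numbers, 0.992% had a listed site on 8q and 0.952% on 8p, the 3rd and 7th highest of the 39 arms. The site numbers spanned 98.6 per Mb on 8q and 74.96 on 8p, against a median of 78.6, and 21.96% of them were present on 8q and 24.1% on 8p. If the numbers count clusters and candidate sites, which the file does not state, 8q had few clusters per Mb, many candidates per Mb and a low share of candidates listed, the 36th of 39 arms.

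The strand of the sites differed between the arms. On 8q, 1396 sites (63.9%, Wilson interval 61.9 to 65.9) were on the minus strand, the highest share of the 39 arms, and on 8p 333 (40.4%, 37.1 to 43.8). The other arms ran from 31.5% on 18p to 60.3% on 2p, with a median of 47.9%. Intron length of coding genes was almost equal on both strands of 8q, at 19.05 Mb on the minus strand and 18.92 Mb on the plus strand, with 228 and 183 genes. All sites of a strand divided by its intron length, wherever they lay, gave 73.3 per Mb on the minus strand of 8q and 41.6 on its plus strand. On 8p the order was the opposite, with 32.3 on the minus strand and 51.4 on the plus strand. Minus-strand sites were the taller ones on both arms, with median heights of 14 against 12 on 8q and 13 against 11 on 8p.

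The high share of the minus strand on 8q was also found outside the full stretches, which held 705 of its 1396 minus-strand sites. Without stretches of 50 or more sites, 67.6% of the sites of 8q were on the minus strand, still the highest of the 39 arms, and 30.2% of those of 8p, the lowest. Of the 42 stretches of at least 10 sites on 8q, 31 were on the minus strand, and of the 22 on 8p, 7 were. In the other autosomes 739 of 1524 were. Bins were often given over to 1 strand. The minus strand held 97.9% of sites at 115 to 120 Mb, 94.98% at 140 to 145 Mb and 91.4% at 130 to 135 Mb, while the plus strand led in the fullest bin, where 27.6% were on the minus strand.

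Neighbouring sites shared a strand in 96.1% of pairs on 8q, the highest of the 39 arms by a small margin, and in 94.5% on 8p. The other arms ran from 89.5% on 19q to 95.9% on 3p, with a median of 94.4%. The strand changed 86 times along 8q. Of these changes, 43 were divergent (minus followed by plus), with a median gap of 146 kb, and 43 convergent, with a median of 218 kb. On 8p the medians were 223 kb for 23 divergent and 267 kb for 22 convergent changes. The closest sites on opposite strands were 10.5 kb apart on 8q and 15.9 kb on 8p.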

How the data were processed

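hnRNPM iCLIP sites from 2 libraries of HMLE cells were analysed. Positions are on GRCh37, per the submitters' processing notes. How reads were aligned, duplicates removed and sites called is not given in the sources used here. Each site's score, as the authors deposited it (its height), is a whole number equal to the value marked PH in its name, and no library is named. Pooling of both libraries was assumed, without a statement to that effect. Depth per library is unknown here.

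Arms were split at the band boundaries of each autosome, with standard GRCh37 chromosome lengths. These were typed in as general knowledge and checked against the list: 0 sites lay within a centromere gap and 0 beyond a chromosome end. The arm 21p, with under 100 sites, was left out of the ranking, and chromosome X was not used. Gaps run from start to start, and positions are 1-based. Gene totals per arm came from GENCODE 29 (GRCh38), and no position was compared between builds. Wilson intervals and order-statistic intervals of medians (95%) treat sites as independent and cover counting error only.

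Named were the 10 tallest sites and 10 fullest stretches of 8q, the 3 fullest clusters, the tallest sites and 3 fullest stretches of 8p, and the fullest and emptiest bins. Stretches ranked by median height, the limit of 50 sites and the division at 95 Mb were added after their values were seen. The members and measures were chosen with earlier results of these data known. The functions were tested on simulated data with planted stretches and clusters. No sequence of this chromosome is printed. The work was done in Python 3.11.15 with pandas 2.3.3, numpy 2.4.6, matplotlib 3.10.9 and scipy 1.17.1.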

Additional observations from a re-analysis of the deposited data

How the results depend on the processing

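Of 56 alternative values, 27 stayed within the 95% interval of the reported one, 28 moved outside it and 1 reversed. Of all 56, 46 were planned and 10 were added after seeing the data. The added ones were those on intron length, removed stretches and gaps for stretches of 50 or more. The density ratio of 8q to 8p reversed to 0.678 without stretches of 50 or more sites in any arm, where the share of chromosome 8 sites on 8q was 59.2%, the median height 11, the median PH0 0.50 and the share in clusters of at least 2 sites 41.4%; the removal takes out 1161 sites of 8q and 121 of 8p. The other 11 density ratios among the 56 values stayed above 1. Not counted among them, the same removal with stretch gaps of at most 20 and 100 kb gave ratios of 0.933 and 0.680, also below 1. The density ratio was 1.43 in the better-scoring 50% of the list, 1.44 for summed height and 1.39 per intron length. The better-scoring 50% was cut by height, and 8q was already the taller arm. A higher share and ratio of 8q thus follow largely from the cut, and summed height carries the same difference. Without the fullest bin of 8q the ratio was 1.08, and 8q held 69.3% of the chromosome 8 sites. That bin was taken from 8q only, so both values had to fall. In the better-scoring 50% the share on 8q was 75.9%, and the median height 20, PH0 0.92, ratio of height to PH0 23.9, share in clusters 57.7% and share in the fullest 25 Mb 63.6%. The rise in median height is fixed by the cut on height, so it is no separate check. With sites within 50 nt merged, the ratio of height to PH0 was 23.8, the share in clusters 44.6% and the share in stretches of at least 10 sites 78.2%. That last share was 69.3% and 84.7% with gaps of at most 20 and 100 kb, and 89.6% and 68.5% for stretches of at least 5 and 20 sites. The share in stretches of 50 or more was 28.4% and 56.6% with gaps of 20 and 100 kb. The fullest 25 Mb held 57.0% of the 8q sites in bins of 5 Mb, 70.1% in bins of 2 Mb, 39.3% in bins of 10 Mb and 53.8% in bins shifted by 2.5 Mb. Without the 10 fullest stretches of each arm, the median height was 11 and the density ratio 1.19, within the interval of the reported value. That removal took nearly equal shares of the sites of both arms, so a ratio close to the reported one follows from it. These alternatives are counts of the same list under other settings, and no cause was tested. No paired analysis was possible because there was a single group without values for each library, which also kept any replicate from being left out. Planned measures on genes were not run without a GRCh37 annotation.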
